A study of Mus musculus with 36 samples.

Results

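The regions described here were more accessible in every Actl6b knockout culture than in any wild-type culture. They are the autosomal regions whose mean level over 12 ATAC-seq libraries was at least 2 CPM and whose lowest knockout (KO) library lay above the highest wild-type (WT) library. CPM is a region's count as a share of all counts of its library, scaled to the same total in every library. The members were chosen by these CPM values, so their difference between the genotypes is a description and is not tested. The rule took 466 of the 68436 autosomal regions at that level (0.681%), out of 76570 regions in all, and these 466 are called opened regions below. The mirror rule, with the highest KO library below the lowest WT library, took 465 regions (0.679%), called closed regions and used only for comparison.

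All libraries came from primary cortical neurons of E16.5 mouse embryos, kept for 7 days in vitro. WT neurons (5 cultures) came from wild-type embryos and KO neurons (7 cultures) from embryos labelled ACTL6B -/-. Both genotypes had 2 h of TTX and APV, blockers of sodium channels and NMDA receptors, before collection, so neither group was stimulated. The series describes the cultures as biological replicates, and each title carries a code such as 3-4, whose meaning the labels do not give. The level of Actl6b itself and the cell types in the cultures were not analysed here. In such bulk samples a change in the share of cells of a type and a change in accessibility per cell cannot be told apart.

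ACTL6B, also called BAF53b, is an actin-related subunit of BAF, a complex that uses ATP to slide or evict nucleosomes. As neural progenitors leave the cell cycle, ACTL6B takes the place of ACTL6A in the complex. ATAC-seq reads out open chromatin through a transposase that inserts sequencing adapters where DNA is not covered by nucleosomes, so a count in a region reflects how often it was cut. No mm9 sequence was used here, so the regions are given by position, width and level, without their bases and without the genes near them.

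WT libraries held 4679644 to 7262297 counts in regions and KO libraries 5296643 to 7040224. An opened region had 48 counts in the median library. At that depth counting error alone gave a coefficient of variation of 18.3% per WT library and 12.6% per KO library in the median opened region. Between libraries of a genotype it was 22.5% in WT and 19.1% in KO, against 26.0% and 26.7% over all regions at the 2 CPM level. The rule favours regions with little spread within a genotype.

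The opened regions took a small part of each library. In WT libraries 3-4, 3-7, 4-2, 4-3 and 4-4 they held 0.453%, 0.451%, 0.472%, 0.479% and 0.465% of all counts. In the 7 KO libraries the share had a lowest value of 0.693%, a median of 0.708% and a highest of 0.755%. The means were 0.464% ± 0.0123 (SD, n = 5) and 0.718% ± 0.0264 (SD, n = 7). These values follow from the rule and are a description. Within KO, libraries 3-2, 3-3 and 4-7 were highest and 2-3, 3-5 and 1-1 lowest.

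**Figure D1:**
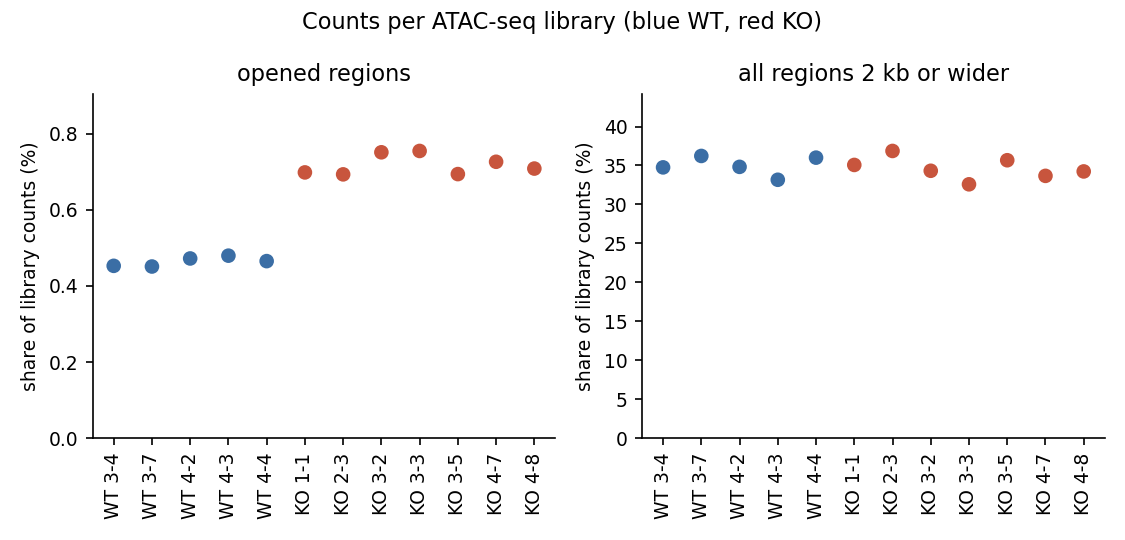
Share of each library's counts (%, both axes start at 0) in the 466 opened regions (left) and, for comparison, in all regions of 2 kb or wider (right); each point is 1 library, blue for WT and red for KO. On the left the 5 WT libraries sit between 0.451% and 0.479% and the 7 KO libraries between 0.693% and 0.755%, while on the right the genotypes overlap.

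The order within KO went with a property of the whole libraries. Regions of 2 kb or wider held 32.6% of counts in KO library 3-3, which had the largest share in opened regions. They held 36.9% in KO library 2-3, which had the smallest share in opened regions. Among WT libraries 4-3 had the largest share in opened regions, 0.479%, and the lowest share in wide regions, 33.2%. Between the genotypes the share in wide regions overlapped, at 35.0% ± 1.22 in WT (SD, n = 5) and 34.6% ± 1.39 in KO (SD, n = 7). Its part in the results was not tested.

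The word opened needs a qualification, since these regions already held counts in WT. No background outside the regions was measured, so counts alone do not show how open they were in WT. None had a count of 0 in every WT library, and 13 had a count of 0 in at least 1 of them. The WT mean was under 2 CPM in 73 regions, 2 to 5 CPM in 151, 5 to 20 CPM in 195 and 20 CPM or more in 47. Per kilobase of region, the median WT level was 6.93 CPM in opened regions and 10.4 CPM over all regions at the 2 CPM level. In KO it was 12.8 CPM per kilobase in opened regions against 10.3 CPM over all. The opened regions thus lay under the typical density in WT and above it in KO. The rule favours low WT and high KO levels, so this is a description. Closed regions, chosen the other way, had medians of 16.3 CPM per kilobase in WT and 10.1 in KO.

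The ratio of mean CPM, with 0.5 CPM added to each mean, ranged from 1.11-fold to 3.80-fold. Its median was 1.74-fold, a log2 ratio of 0.80, while the median log2 ratio of all regions at the 2 CPM level was 0.01. A ratio under 1.2-fold was found in 6 opened regions and one of 1.2 to 1.5-fold in 100. The largest class, 232 regions or 49.8%, had a ratio of 1.5 to 2-fold, 120 one of 2 to 3-fold and 8 one of at least 3-fold. The larger ratios belonged to weakly accessible, short regions: in the 8 with the largest ratios the WT level was 1.96 CPM and the width 566.5 bp (medians). In the 6 with the smallest ratios the medians were 55.1 CPM and 2791 bp. This was not particular to opened regions. Over all regions at the 2 CPM level, 406 of the 2376 with a WT mean under 2 CPM had a ratio of at least 2-fold. Of the 12895 with a WT mean of 20 CPM or more, 0 did. Median widths in these 2 classes were 495 and 1946 bp. A region with a WT mean under 2 CPM reaches the 2 CPM level only through KO. Its KO mean is therefore always the higher one. The WT mean is also the lower part of the ratio, so this comparison of classes is a description.

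**Figure D2:**
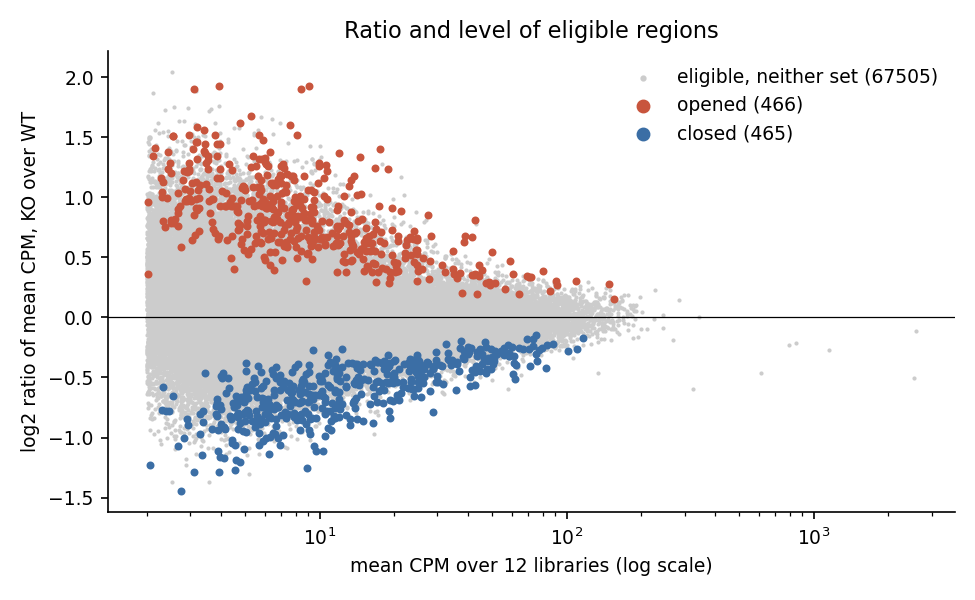
Log2 ratio of mean CPM, KO over WT (0.5 CPM added), against mean CPM over 12 libraries on a log axis; grey points are regions at the 2 CPM level in neither set, red points the 466 opened and blue points the 465 closed regions. Ratios of opened regions narrow from a median log2 ratio of 1.04 in the lowest of 4 equal classes of level to 0.45 in the highest, and many grey points lie as high as the red ones because at least 1 library overlapped.

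The region with the largest ratio lay on chromosome 5 at 86615944 to 86616711 (coordinates of all regions are mm9). WT libraries 3-4, 3-7, 4-2, 4-3 and 4-4 had 2.50, 1.28, 5.74, 2.72 and 3.44 CPM there. The KO libraries ran from 9.67 over a median of 12.3 to 18.9 CPM. The means were 3.14 ± 1.65 CPM (SD, n = 5) and 13.3 ± 3.82 CPM (SD, n = 7), a ratio of 3.80. A WT library had at most 38 counts and a KO library at least 66, so this region combined a large ratio with a wide gap between the genotypes.

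The second, on chromosome 10 at 7938263 to 7938826, was close to empty in 2 WT libraries. Its WT values were 0.384, 1.07, 2.72, 1.45 and 0.275 CPM in the same order of libraries. Its KO values ran from 3.31 over a median of 5.88 to 8.95 CPM. The ratio of means was 3.79, and 18 counts in WT library 4-2 stood against 23 counts in KO library 3-2, a narrow gap for so large a ratio.

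The third, on chromosome 9 at 14400839 to 14401313, had 1.92, 1.71, 2.72, 5.07 and 3.30 CPM in WT. KO libraries spread from 5.85 over a median of 14.1 to 21.4 CPM. The KO cultures fell apart widely: libraries 1-1, 2-3 and 3-5 had 5.85, 6.61 and 8.32 CPM and the other 4 had 14.1 to 21.4 CPM.

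The fourth, on chromosome 2 at 10934793 to 10935362, rested on few counts and on 1 library. WT values were 1.54, 0.641, 1.21, 1.09 and 0 CPM. KO values ran from 1.80 over a median of 4.32 to 11.9 CPM, the highest in library 3-3 and the next at 5.05 CPM. A WT library had at most 8 counts and a KO library as few as 10.

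The fifth, on chromosome 1 at 45549041 to 45549554, had 1.15, 1.07, 2.27, 3.44 and 2.20 CPM in WT and 5.11 to 13.9 CPM in KO, with a median of 7.21 CPM and library 3-3 again apart at the top. The sixth, on chromosome 5 at 113729465 to 113729921, had 0.576, 2.99, 0.906, 2.90 and 2.07 CPM in WT and 3.21 to 9.53 CPM in KO, with a median of 7.67 CPM. In the seventh, on chromosome 3 at 74963130 to 74964052, WT had 2.30, 2.56, 2.72, 4.89 and 3.58 CPM and KO 7.82 to 14.8 CPM, with a median of 10.1 CPM. The 923 bp of the seventh make it the widest of the 8, and its genotypes stood well apart, with at most 27 counts in a WT library and at least 50 in a KO library. The eighth, on chromosome 17 at 9873492 to 9874060, had 1.15, 0.855, 0.906, 2.54 and 0.551 CPM in WT and 2.71 to 7.64 CPM in KO, with a median of 4.76 CPM.

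**Figure D3:**
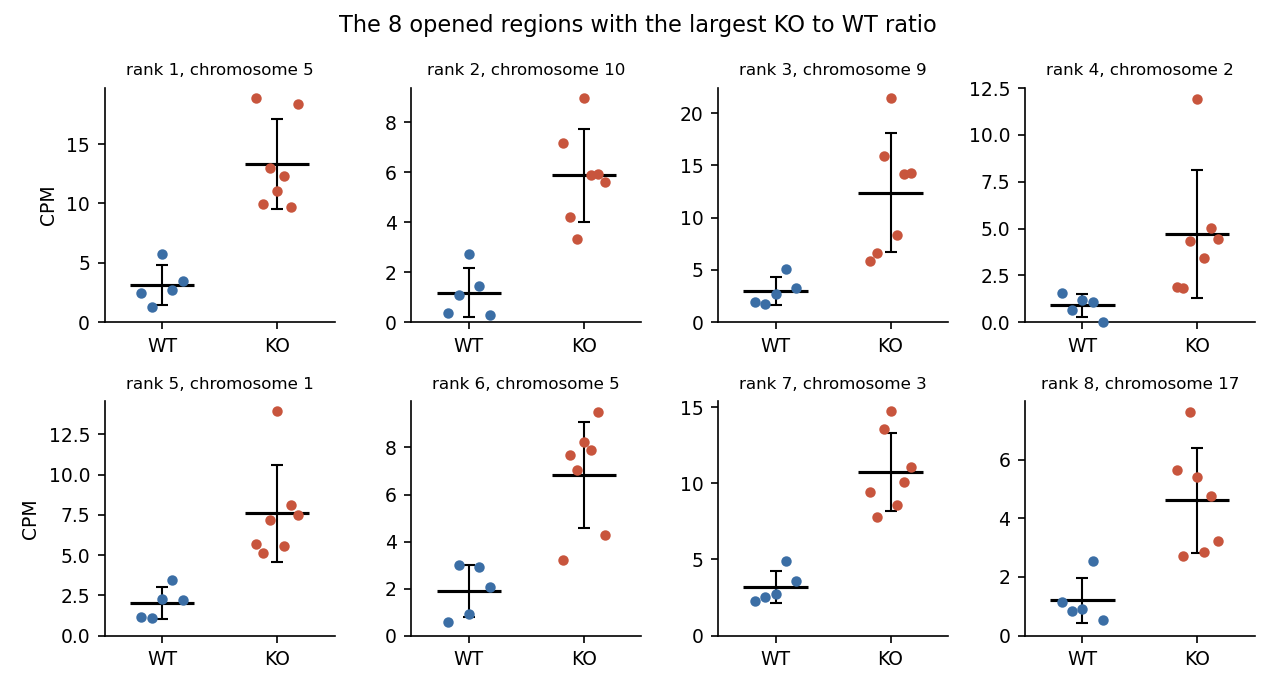
CPM (linear axes from 0) in each WT (blue) and KO (red) library for the 8 opened regions with the largest ratio of means, in rank order; bars are means with SD. No panel has an overlap, which the rule requires, and in the panels of ranks 4 and 5 KO library 3-3 sits alone at 11.9 and 13.9 CPM.

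A different view of the set is the gap between the genotypes, the lowest KO over the highest WT library with 0.5 CPM added to each. This gap was narrow in most opened regions, with a median of 1.07-fold and an upper quartile of 1.14-fold. In 52 of the 466 the lowest KO library was at least 25% above the highest WT library. The widest gap, 1.68-fold, was on chromosome 10 at 49734598 to 49735375. WT values there were 4.03, 4.27, 6.34, 5.98 and 5.23 CPM and KO values 10.97 to 16.52 CPM with a median of 13.4 CPM. Both genotypes were tight, at 5.17 ± 1.02 CPM (SD, n = 5) and 13.3 ± 1.80 CPM (SD, n = 7).

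The one on chromosome 5 with the largest ratio came second with a gap of 1.63-fold. On chromosome 10 at 126624274 to 126625028 the gap was 1.58-fold, with WT at 5.37, 4.06, 7.25, 6.16 and 6.20 CPM and KO at 11.7 to 17.0 CPM around a median of 13.9 CPM. On chromosome 3 at 13268747 to 13269233 it was 1.56-fold, with WT at 3.84, 2.78, 3.93, 3.26 and 1.24 CPM and KO at 6.42 to 10.2 CPM around a median of 7.78 CPM. The seventh region by ratio, on chromosome 3, had a gap of 1.54-fold.

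The sixth by gap was the most accessible of these, on chromosome 15 at 102750956 to 102752643 and 1688 bp wide. Its WT libraries were nearly level at 9.21, 10.04, 7.55, 8.34 and 8.54 CPM. Its KO libraries ran from 15.6 over a median of 25.7 to 31.7 CPM, a ratio of means of 2.64 with at most 62 counts in a WT and at least 104 in a KO library. It was both well covered and well separated.

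At the other end, 3 regions only just met the rule. On chromosome 9 at 24317609 to 24318703 the lowest KO library had 6.04 CPM from 32 counts and the highest WT library 6.04 CPM from 40 counts. The same counts in the same libraries, KO 1-1 and WT 4-2, gave the same gap on chromosome 17 at 70560587 to 70561348. On chromosome 6 at 34287555 to 34288252 both values were 9.06 CPM, from 48 and 50 counts. Just outside was a region on chromosome 8 at 128483071 to 128483890 that reached 23.9 ± 7.25 CPM in KO (SD, n = 7) against 9.57 ± 3.36 CPM in WT (SD, n = 5). KO library 2-3 and WT library 4-3 both had 14.1 CPM there, so a ratio of means of 2.42 was left out by 1 library of each genotype. The other 2 just outside, on chromosome 7 at 134757393 to 134759857 and on chromosome 11 at 98801397 to 98804134, had ratios of 1.35.

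The most accessible opened regions were broad, and their means differed little between the genotypes. The highest level and the greatest width, 11053 bp, belonged to a region on chromosome 2 at 25428640 to 25439692. It had 147, 145, 137, 149 and 150 CPM in WT and 153 to 173 CPM in KO with a median of 164 CPM, a ratio of 1.11. On chromosome 10 the region at 80082617 to 80089570 had 132 ± 11.2 CPM in WT (SD, n = 5) and 160 ± 10.8 CPM in KO (SD, n = 7). On the same chromosome the region at 79626211 to 79632716 had 104, 102, 75.1, 98.9 and 101 CPM in WT and 106 to 133 CPM in KO. Just before that one lay the second widest, 9086 bp at 79589364 to 79598449, with 68.0 ± 4.92 CPM in WT (SD, n = 5) and 89.1 ± 10.9 CPM in KO (SD, n = 7). The stretch of chromosome 10 from 79589364 to 80089570 thus holds 3 of the 5 regions named here for their level or width. The fourth by level, on chromosome 5 at 121036372 to 121039713, had 81.3 ± 6.10 CPM in WT (SD, n = 5) and 98.1 ± 8.69 CPM in KO (SD, n = 7).

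Width was not used by the rule. The median opened region was 776.5 bp wide, close to the 774 bp of all regions at the 2 CPM level and narrower than the 918 bp of closed regions. Regions of 2 kb or wider were 9.01% of the opened, 14.2% of the closed and 9.87% of all. In 4 equal classes of width from narrow to wide, 0.635%, 0.721%, 0.772% and 0.596% of regions were opened and 0.536%, 0.551%, 0.655% and 0.976% closed. Opening was thus spread over all widths while closing was most frequent in the widest class. In 4 equal classes of mean level from low to high, 0.596%, 0.725%, 0.772% and 0.631% were opened and 0.281%, 0.584%, 0.783% and 1.07% closed. Closing was thus also most frequent in the highest class of level. Width and level were not separated, and the part of each was not tested.

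Every autosome held opened regions, from 13 on chromosome 18 to 43 on chromosome 5. As a share of a chromosome's regions at the 2 CPM level, the highest were 0.997% on chromosome 11, 0.989% on chromosome 19, 0.944% on chromosome 5 and 0.859% on chromosome 15, beside 0.681% over all autosomes. Chromosomes 11 and 19, singled out after their values were seen, also had few closed regions. Chromosome 11 had 42 opened and 13 closed regions, and chromosome 19 had 17 opened and 5 closed. Chromosomes 1, 8 and 18, among others, had the reverse, with 29, 20 and 13 opened against 45, 34 and 21 closed regions. The median log2 ratio over all regions of a chromosome at the 2 CPM level was 0.05 on chromosome 11, 0.06 on chromosome 19, -0.02 on chromosome 1 and -0.01 on chromosome 18. On chromosome 8 it was 0.02, above the 0.01 of all regions although closed regions were more frequent there.

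The opened regions were seldom next to each other. Another opened region lay within 100 kb of 36 of them, 7.73%, and none had one within 10 kb. Over all regions at the 2 CPM level 5.72% had an opened region within 100 kb, and of the closed regions 4.09% did. Within 1 Mb the shares were 47.9% of opened, 37.3% of all and 28.4% of closed regions. Closed regions had another closed region within 100 kb in 7.31%, close to the value for opened regions, and within 1 Mb in 34.6%. Of all regions 4.94% had a closed region within 100 kb and 36.4% within 1 Mb. Opened regions also lay in slightly denser surroundings, with a median of 45 other regions within 0.5 Mb on either side, against 42 around all regions and 39 around closed ones. No group of 3 or more opened regions with steps under 100 kb was found.

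Only 2 pairs of opened regions followed each other with no other region between them. On chromosome 1 the regions at 155788092 to 155788563 and 155800900 to 155801355 are 12336 bp apart. The first had 2.88, 4.70, 4.38, 4.71 and 3.44 CPM in WT and 4.96 to 14.5 CPM in KO with a median of 8.37 CPM. The second had 2.69, 1.496, 2.42, 2.90 and 2.62 CPM in WT and 3.16 to 6.20 CPM in KO with a median of 4.33 CPM. KO library 3-3 was the highest of all at the first and the second lowest in KO at the second, so the order of the KO cultures differed within the pair.

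On chromosome 9 the pair lay at 120624351 to 120625670 and 120668713 to 120669288. The first had 10.7, 11.1, 9.82, 9.79 and 8.81 CPM in WT and 11.8 to 22.8 CPM in KO with a median of 14.6 CPM. The second had 9.21, 6.20, 6.34, 11.2 and 8.26 CPM in WT and 11.6 to 16.9 CPM in KO with a median of 14.7 CPM. KO library 3-5 was the lowest at the first and the highest at the second.

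Regions near opened ones, themselves in neither set, also had the higher mean in KO more often than not. Of the 125 that lay within 2 kb of an opened region, 65.6% had a positive log2 ratio, with a median of 0.13. The median was 0.10 at 2 to 5 kb, 0.07 at 5 to 20 kb, 0.06 at 20 to 100 kb, 0.04 at 100 to 200 kb and 0.03 at 200 to 500 kb. At 500 kb to 1 Mb it was 0.01, the median of all regions in neither set, of which 51.9% were positive. Around closed regions the medians were negative up to 500 kb, with -0.08 within 2 kb and -0.03 at 50 to 100 kb. These values come from the libraries and the contrast that chose the regions, and are given as a description.

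**Figure D4:**
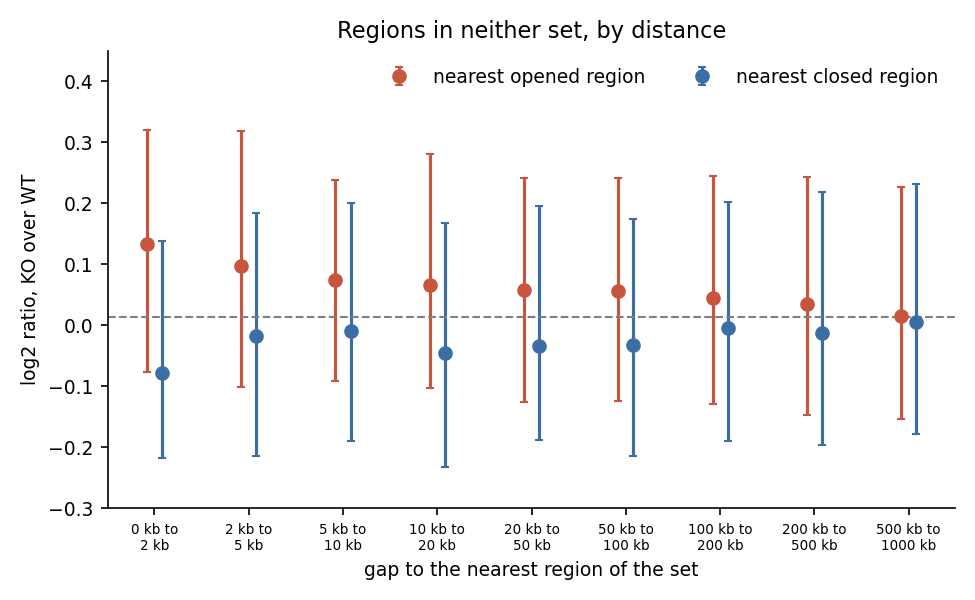
Median log2 ratio of mean CPM, KO over WT, with its quartiles, of regions in neither set by the gap to the nearest opened (red) or closed (blue) region; the dashed line is the median of all regions in neither set. Red medians fall from 0.13 to 0.01 with distance, and the quartiles of all distances overlap.

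Each library was then left out of the choice and measured. Of the regions that met the rule in the other 11 libraries, a left-out KO library exceeded all 5 WT libraries in 87.7% for library 4-7 (528 regions), 85.6% for 3-2, 81.1% for 3-3, 77.2% for 4-8, 69.1% for 1-1, 63.7% for 3-5 and 51.2% for 2-3 (911 regions). Over all regions at the 2 CPM level the same libraries did so in 15.9% to 23.3%. A left-out WT library lay below all 7 KO libraries in 64.5% to 69.7% of regions for 4 of the libraries and in 40.5% of 1150 regions for library 4-3, beside 13.0% to 18.1% over all regions. The other genotype's libraries serve both to choose and to measure here. A region that met the rule in the other 11 libraries and also in the left-out one is in nearly every case an opened region. Such regions numbered 462 to 468 whichever library was left out. The percentages therefore reflect how many regions met the rule without that library. Their comparison with all regions cannot test the separation and is a description. KO library 2-3 and WT library 4-3 were thus the ones that most often ended a separation shown by the others.

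The code allowed a choice and a measurement in different libraries. Codes starting with 3 belong to 2 WT and 3 KO libraries and codes starting with 4 to 3 WT and 2 KO libraries. With so few libraries the rule took 10963 regions in codes starting with 3, far more than 466. In the libraries with codes starting with 4, 74.0% of these had a higher KO than WT mean, with a median log2 ratio of 0.24, where all regions had 52.6% and 0.02. The 9608 regions chosen in codes starting with 4 had a higher KO mean in 74.6% in codes starting with 3, with a median log2 ratio of 0.33, against 52.5% and 0.03. Where they had been chosen, the medians were 0.74 and 0.61, so the size shrank in libraries that had no part in the choice. In the second set of libraries 26.3% and 29.5% of the chosen regions also had no overlap, against 14.3% and 15.9% of all regions.

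The share of counts in the regions opened in codes starting with 3 was 11.3%, 12.3% and 10.7% in WT libraries 4-2, 4-3 and 4-4. It was 13.6% and 12.9% in KO libraries 4-7 and 4-8, above all 3. The KO libraries with codes of their own, 1-1 and 2-3, had 12.4% and 11.5%, so 2-3 lay within the WT values. For regions opened in codes starting with 4, WT libraries 3-4 and 3-7 had 9.36% and 9.34%, and the 5 other KO libraries 10.1% to 11.7%, all above WT.

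**Figure D5:**
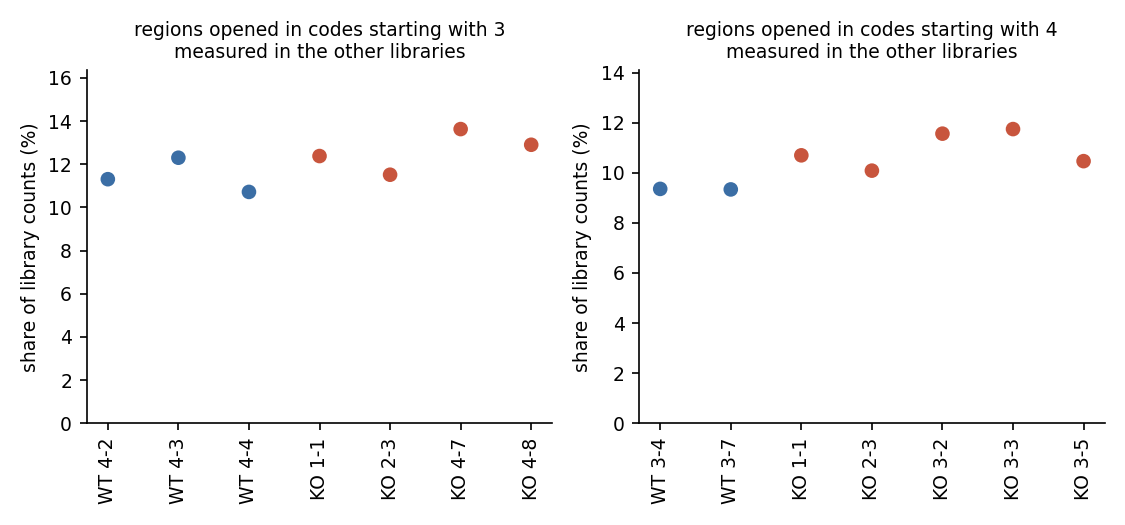
Share of counts (%, axes from 0) in regions that met the rule in libraries with codes starting with 3 (left, 10963 regions) or 4 (right, 9608 regions), in the libraries not used for that choice; blue is WT and red is KO. On the left KO library 2-3 at 11.5% lies among the WT libraries, and on the right the 5 KO libraries lie above both WT libraries.

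Among the 466, the median log2 ratio was 0.86 in codes starting with 3 and 0.75 in codes starting with 4, where all regions had 0.03 and 0.02. The lack of overlap within each is fixed by the rule. The difference of the KO effect between the codes was tested with edgeR's quasi-likelihood test over all 75711 regions. No region of any kind passed an adjusted p of 0.05 (0% called), with 5 opened regions and 3035 of all at an unadjusted p under 0.05. Over the opened regions the middle 90% of these differences ran from -0.98 to 0.61 on the log2 scale around a median of -0.11. The rule requires the KO libraries to be higher in both codes, so it favours regions whose effects agree. With so few libraries in each code, the lack of calls does not show that the effects are equal.

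Contrasts that the rule did not use called no opened region. With so few calls over all regions, 0 among the 466 says nothing particular about them. Between codes starting with 4 and 3, with genotype in the model, 0 opened regions were called by edgeR or DESeq2. By edgeR 0.00132% of all regions tested were called. An unadjusted p under 0.05 was found by edgeR in 4 opened regions, beside 2896 of all 75711 regions. Libraries with counts on chromosome Y, 3 WT and 4 KO, were set against those without, as a measure of embryo sex. Again 0 opened regions were called by either tool, and by edgeR 6 had an unadjusted p under 0.05, beside 3505 of all 75892 regions. Of all regions tested edgeR called 0.0211%, and of the 68436 autosomal regions at the 2 CPM level it called 0, with a smallest adjusted p of 0.241. The median absolute log2 difference of opened regions was 0.13 between codes and 0.12 by chromosome Y counts, under the 0.16 of all regions in both. The rule favours regions with little such difference.

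In the model of KO against WT over all 73346 regions tested, 157 of the 466 opened regions were called higher, beside 0.525% of all regions. The rule used this contrast, and nothing is read from that count. It shows only that separation of all libraries and a call by edgeR are different criteria: 309 opened regions were not called. The unadjusted p was under 0.05 in 444 opened regions, beside 10459 of all 73346. DESeq2 called 277. Single libraries moved the 157 strongly, and the calls over all regions moved with it. With WT libraries 3-4, 3-7, 4-2 and 4-4 left out in turn it was 60, 73, 89 and 44. Over all regions 100, 141, 195 and 68 were called higher in these fits, against 385 with every library. With KO libraries 3-2, 3-3 and 4-7 left out it was 81, 82 and 89, beside 142, 134 and 157 over all regions. Leaving out WT 4-3 or KO 1-1, 2-3, 3-5 or 4-8 gave 178, 142, 191, 157 or 122. Beside these stood 1166, 415, 881, 539 or 245 over all regions. In codes starting with 3 alone 34 opened regions were called higher, beside 0.445% of all regions, and in codes starting with 4 alone 1 was, beside 0.00272%.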

How the data were processed

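Each ATAC-seq library has a deposited table of whole-number read counts in the same 76570 regions. Among the tools in the submitters' processing notes are Bowtie2, MACS2, bedtools and Trim Galore, and mm9 and mm10 are its genome builds. The choice of regions, any shift of reads for the transposase and any removal of duplicates are not stated there. Names ending in random, as in mm9, are carried by 56 regions, and chromosome 1 reaches 197068294. The coordinates were read as mm9, with starts counted from 0 in the files and from 1 here. The 24 RNA-seq tables were not used.

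The regions, their comparisons and the rule for named regions were chosen with earlier results of these data known. Named regions are the 8 with the largest ratio of mean CPM, 6 with the widest gap, 4 with the highest level, 3 just inside and 3 just outside the rule, the 3 widest, groups of 3 or more within 100 kb steps and up to 3 adjacent pairs. CPM values were computed from the library's sum of deposited counts. Models were edgeR 4.0.16 quasi-likelihood tests (robust, TMM, filterByExpr) in R 4.3.3 with Benjamini-Hochberg adjustment and a threshold of 0.05, checked on simulated counts. DESeq2 1.42.0 was an alternative. Models within one first number of the code, the interaction and the measurement in libraries left out of the choice were added after the data were seen. The counting error covers counting only, while each SD is taken over the libraries of a genotype.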

Additional observations from a re-analysis of the deposited data

Results flagged for a closer look

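In 58 groups of libraries checked (29 measures, 2 genotypes each), 7 had a library far from the others of its genotype. The threshold gives about 1 in 20 for normal values that were not selected. These regions were chosen by their values, so that rate does not apply and the count is a description. KO library 3-3 stood apart at the top in 3 regions: 11.9 CPM on chromosome 2 at 10934793 to 10935362 (next library 5.05 CPM), 13.9 CPM on chromosome 1 at 45549041 to 45549554 (next 8.08 CPM) and 14.5 CPM on chromosome 1 at 155788092 to 155788563 (next 9.03 CPM). WT library 3-7, the shallowest, stood apart at the bottom in 2 regions that only just met the rule: 2.78 CPM on chromosome 9 at 24317609 to 24318703 (next 5.18 CPM) and 2.35 CPM on chromosome 17 at 70560587 to 70561348 (next 5.51 CPM). WT library 4-2 had 75.1 CPM on chromosome 10 at 79626211 to 79632716 (next 98.9 CPM), and WT library 3-4 had 70.6 CPM on chromosome 5 at 121036372 to 121039713 (next 82.6 CPM). Over all 466 opened regions a WT library stood apart in 36 and a KO library in 33, most often WT library 3-7 (11 regions) and KO library 3-3 (12 regions).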

How the results depend on the processing

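The number of opened regions was 440 with TMM scaling (393 of them among the 466), 447 after thinning all libraries to the smallest (315 of the 466) and 348 at a minimum of 5 CPM. It was 52 when the lowest KO library had to be 25% above the highest WT library, and 10963 and 9608 in codes starting with 3 and 4 alone. Leaving out 1 library removes a condition of the rule and gave 528 to 1150 regions, which held 462 to 466 of the 466: with WT library 4-2 or 4-3 left out the number was 726 or 1150, and with KO library 2-3 or 3-5 left out 911 or 730. The median log2 ratio was 0.65 with 2 CPM added in place of 0.5 and 0.77 to 0.83 without 1 library. Regions called in KO against WT numbered 594, or 1251 by DESeq2, and 95 to 1582 without 1 library. They numbered 2 in codes starting with 4 alone and 402 in codes starting with 3 alone. With the first number of the code as a covariate they numbered 1466 (168 of them opened and higher). KO libraries 1-1 and 2-3 each have a first number of their own. That genotype estimate therefore rests on the libraries with codes starting with 3 or 4. Opened regions called higher numbered 157, or 277 by DESeq2, and 44 to 191 without 1 library. Over all regions 385 were called higher, or 816 by DESeq2, and 68 to 1166 without 1 library. Calls by code numbered 1 (0 to 4 without 1 library) and by chromosome Y counts 16 (15 to 31). Another opened region lay within 10 kb of 0 and within 1 Mb of 223. The causes were not tested. No paired analysis was possible because no full code occurs in both genotypes; the first numbers 3 and 4 do, and served as the covariate and the splits above.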

Other observations

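On chromosome X, which the rule leaves out, 7 of 1043 regions with a mean of at least 2 CPM had every KO library above every WT library and 8 had every KO library below.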
